A study of Arabidopsis thaliana with 9 samples.

Results

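The SAUR genes (small auxin-up RNA) were examined as a family of 44 Arabidopsis thaliana genes, chosen by gene identifier from the 32678 genes of the deposited files. SAUR genes encode short plant proteins, and many of their transcripts rise within minutes of an auxin signal. The best-known members, SAUR19 to SAUR24, bind and inhibit PP2C.D protein phosphatases. These phosphatases otherwise switch off the plasma membrane proton pumps (the AHA family), so SAUR proteins keep the pumps active, the cell wall acidic and the cell able to expand. In seedlings the family is known for both hypocotyl elongation and the light-driven opening of cotyledons, carried by different members.

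Transcripts of whole seedlings were sequenced in 9 libraries, 3 for each of 3 genotypes, all of the Col-0 ecotype. Col was the wild type, and csu5-1 and csu5-3 were mutants of COP1 SUPPRESSOR 5, as the series title names the gene. COP1 itself holds back light-driven seedling development by marking transcription factors with ubiquitin. All plants were 5 days old and had grown in constant white light of 14.59 μmol per square metre and second. The labels give neither the locus, nor which allele is the missense one named in the title, nor whether libraries of a genotype came from separate cultures, so the p-values measure the spread between these libraries. Whole seedlings hold many cell types, and fewer cells of a type cannot be told apart from less RNA per cell.

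Levels are in FPKM, a unit inferred from the values since the files name none, which counts fragments per kilobase of transcript and per M counted reads and so allows genes to be compared with each other. Estimated depth was 37.2 to 43.0 M counted reads per library. The shoot markers, 5 of 5 tested, were abundant in every library. Their summed levels were 49818.2 to 52699.2 FPKM in Col, 41005.1 to 42483.2 in csu5-1 and 46468.3 to 52307.2 in csu5-3. In csu5-1 against Col 2 of the 5 rose (40%, against 8.31% of all tested genes) and 1 fell (20%, against 7.86%). On the log2 scale LHCB3 rose by 2.67 and CAB3 by 2.11 (limma adjusted p at most 3.2e-08). LHCB1.3, which makes up most of the sum, fell by 0.61 (limma adjusted p = 0.0015). Root markers were tested for 7 of 10 genes, none was at 0 throughout a genotype, and their summed level was 123.0 to 142.5 FPKM in Col, 101.0 to 116.0 in csu5-1 and 122.5 to 132.2 in csu5-3. In csu5-1 against Col the root hair genes PRP3, EXPA7 and EXPA18 fell (42.9% of those tested, against 7.86% of all tested genes). SHR rose (14.3%, against 8.31%). COBL9, also a root hair gene, SCR and PHT1;1 were not called, at log2 differences of −0.46, 0.23 and −0.17. Some root transcripts thus moved in the same libraries as SAUR transcripts, and their part in the results was not tested. Seed markers were low, with 4.1 to 16.7 FPKM summed over 5 genes across the 9 libraries. Of these 3 were tested, and LEA76 fell in csu5-1 against Col, by 0.79 ± 0.15 on the log2 scale (SE, limma adjusted p = 0.00077), a change whose part in the results was not tested.

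Most of the 44 genes lie in neighbourhoods, many of them tandem copies, and 14 are dispersed, which means apart from others of the 44. Being neighbours does not always mean being close copies. SAUR6 and SAUR12 share 34.3% of their residues, and SAUR51 and SAUR52 share 29.1%. In the TAIR10.1 annotation SAUR19 to SAUR24 span chr5:5962773-5984308 and the SAUR61 to SAUR68 genes chr1:10301377-10323239. SAUR50 lies beside SAUR1 to SAUR5 on chr4:16582183-16599568, and SAUR26 to SAUR29 lie on chr3:976715-983768. The genes are compact, with 42 of 44 having no intron and proteins of 88 to 186 residues. The 6 copies SAUR19 to SAUR24 share 87.7% to 95.2% of their coding bases pairwise and 89.0% to 95.6% of their residues. In the SAUR61 to SAUR68 neighbourhood the median protein identity is 63.0%, and between genes of different neighbourhoods it is 28.9%.

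Such copies can share reads, so the separate values of near-identical genes carry an uncertainty beyond the replicate error. For 41 of the 44 genes over 95% of the exonic stretches of 100 bases occur nowhere else in the genome. SAUR62, SAUR63 and SAUR67 fall short, at 91.4%, 81.1% and 78.4%. For SAUR19 to SAUR24 every stretch of 100 bases is unique, but at 50 bases the share drops to 81.5% in SAUR19. Another annotated gene overlaps 5 of the 44 (SAUR6, SAUR8, SAUR61, SAUR63 and SAUR64), and the sources used here do not say whether the authors counted reads by strand. The gene that overlaps SAUR6 is AT2G21200 (SAUR7), a SAUR gene outside the 44. It lies on the same strand, so counting by strand would not separate the reads of their overlap.

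The 250 bases before each annotated start were searched on both strands for 4 short motifs that transcription factors of growth control are known to bind. CACATG, an E-box variant bound by PIF factors, was present in 25 of the 44 windows (56.8%), against 11.1% of the 27443 windows of all protein-coding genes. The auxin response element TGTCTC was present in 6 of 44 (13.6%, against 10.9% of all), the G-box CACGTG in 1 (2.27%, against 6.49%), and the brassinosteroid element CGTGTG in 2 (4.55%, against 5.37%). SAUR59 held the single G-box window, where CGTGTG matches overlap CACGTG. These matches describe the letters of the windows only, and the copies are related by descent, so the windows are not independent of each other.

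The nearest CACATG lay 10 to 231 bases before the annotated start, with a median of 79. The following stretches are 50 bases each, 5′ to 3′ on the strand of the gene, read from TAIR10.1, with the hexamer in capitals (written CATGTG where it lies on the opposite strand). The first 5 come from copies of the SAUR19 to SAUR24 neighbourhood, matched to SAUR22 without gaps, and show where the hexamer is present or absent. The other 5 show it in other neighbourhoods, in genes picked for csu5-1 values above those of Col, so they do not stand for all genes with it. Of these, SAUR66 was not called in csu5-1 against Col (log2 difference 0.44). SAUR5, SAUR6, SAUR14, SAUR15, SAUR51, SAUR63, SAUR65 and SAUR67 also hold the hexamer and were not called in that comparison.
SAUR22 (chr5:5975179-5975228, minus strand): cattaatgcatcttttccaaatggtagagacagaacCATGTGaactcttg
SAUR19 (chr5:5963515-5963564, minus strand): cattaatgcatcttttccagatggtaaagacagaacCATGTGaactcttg
SAUR21 (chr5:5968274-5968323, plus strand): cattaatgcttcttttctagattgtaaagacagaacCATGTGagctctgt
SAUR20 (chr5:5966787-5966836, minus strand): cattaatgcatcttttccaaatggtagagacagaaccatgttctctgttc
SAUR24 (chr5:5983582-5983631, plus strand): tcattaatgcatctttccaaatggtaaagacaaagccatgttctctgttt
SAUR26 (chr3:982944-982993, plus strand): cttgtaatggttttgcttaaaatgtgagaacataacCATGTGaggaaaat
SAUR28 (chr3:980568-980617, minus strand): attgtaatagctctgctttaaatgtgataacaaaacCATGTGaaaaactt
SAUR1 (chr4:16591072-16591121, plus strand): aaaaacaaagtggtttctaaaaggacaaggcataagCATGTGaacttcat
SAUR4 (chr4:16596499-16596548, plus strand): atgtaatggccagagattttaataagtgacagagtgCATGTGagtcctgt
SAUR66 (chr1:10320939-10320988, plus strand): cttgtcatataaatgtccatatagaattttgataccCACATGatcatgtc
Position by position, the SAUR22 stretch matched that of SAUR19 at 48 of 50 bases and that of SAUR21 at 42. The most similar stretch of SAUR20 matched at 45 bases and that of SAUR24 at 31, and neither held the hexamer. No gaps were allowed. SAUR24 has a shorter run of t after gcatc, which puts its first bases out of step with SAUR22, so the count of 31 understates their likeness. SAUR23 had no CACATG in its window, which was not searched for a stretch similar to that of SAUR22. The annotated starts put the hexamer 42 bases upstream in SAUR21 and 123 in SAUR19.

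In Col, SAUR transcripts ranged from 0 FPKM in every library for SAUR2 to a mean of 64.5 ± 1.08 FPKM (SD, n = 3) for SAUR6. Only 6 genes had a Col mean of at least 20 FPKM (SAUR6, SAUR78, SAUR32, SAUR14, SAUR50 and SAUR16), while 11 lay from 5 to under 20, 22 from 1 to under 5 and 5 under 1. SAUR6 (AT2G21210), one of the less studied genes, had 64.6, 63.3 and 65.5 FPKM in Col, 51.1, 61.5 and 56.5 in csu5-1, and 62.9, 49.6 and 55.6 in csu5-3. Every library of both mutants lay below those of Col, and neither difference was called. SAUR32 (AT2G46690), known for its part in the apical hook, had 47.5, 38.0 and 42.8 FPKM in Col, 43.2, 38.6 and 44.5 in csu5-1, and 37.3, 35.3 and 42.8 in csu5-3. The 3 genotypes overlapped for SAUR32.

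**Figure D1:**
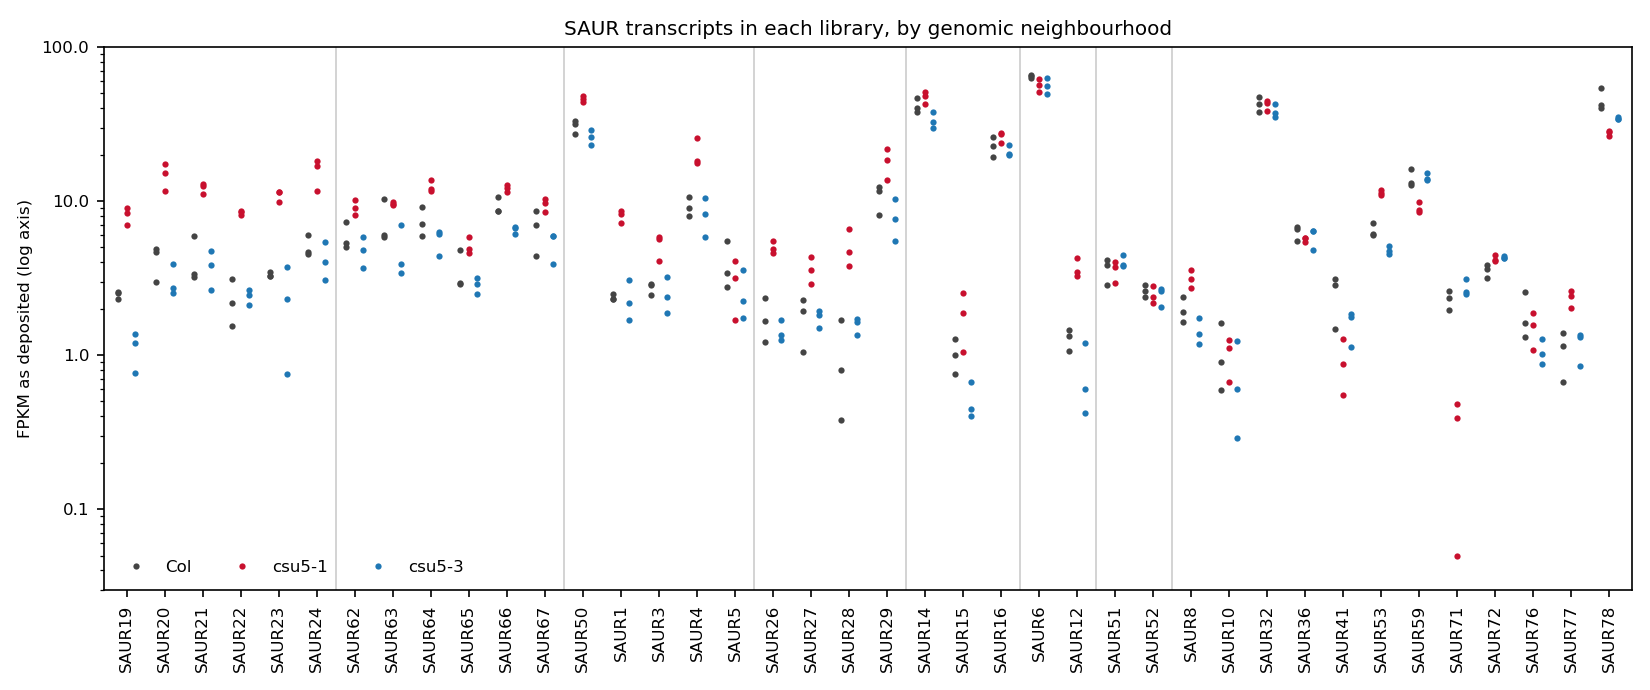
Deposited FPKM of each tested SAUR gene in each library, on a log axis, with Col in grey, csu5-1 in red and csu5-3 in blue and genomic neighbourhoods divided by vertical lines. For SAUR19 to SAUR24 all 3 csu5-1 points stand above those of the other genotypes, for SAUR71 they stand below, and for SAUR6 and SAUR32 the genotypes lie close together.

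The test took in every gene that reached 1 FPKM in 3 or more libraries, among them 40 of the 44. SAUR2, SAUR9, SAUR25 and SAUR61 were too low, and SAUR10 and SAUR15 passed only with the help of csu5-1 libraries. A gene was called, and is said to have risen or fallen, at an adjusted p below 0.01 (limma, Benjamini-Hochberg over all 19329 tested genes) and a fold above 1.5. Fold changes are differences of log2(FPKM + 0.5), which understates the change of low genes. The comparisons of each mutant with Col share the Col libraries, and both comparisons that involve csu5-1 share its libraries, so their results are not independent.

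In csu5-1 against Col, 20 of the 40 tested SAUR genes rose (50%), against 8.31% of all tested genes. A further 3 fell (7.5%, against 7.86% of all), and 17 were not called. The median log2 difference of the 40 was 0.63, against −0.0023 for all tested genes. Among all genes 1606 rose and 1519 fell, a split that became 1313 and 1962 without scaling between libraries, under which 17 SAUR genes rose and 4 fell. Genes that rose had a median Col level of 3.03 FPKM, and those not called 6.29 FPKM. The summed level of all 44 genes was 366.1 to 429.1 FPKM in the libraries of Col and 487.7 to 506.0 in those of csu5-1, with means in a ratio of 1.26.

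**Figure D2:**
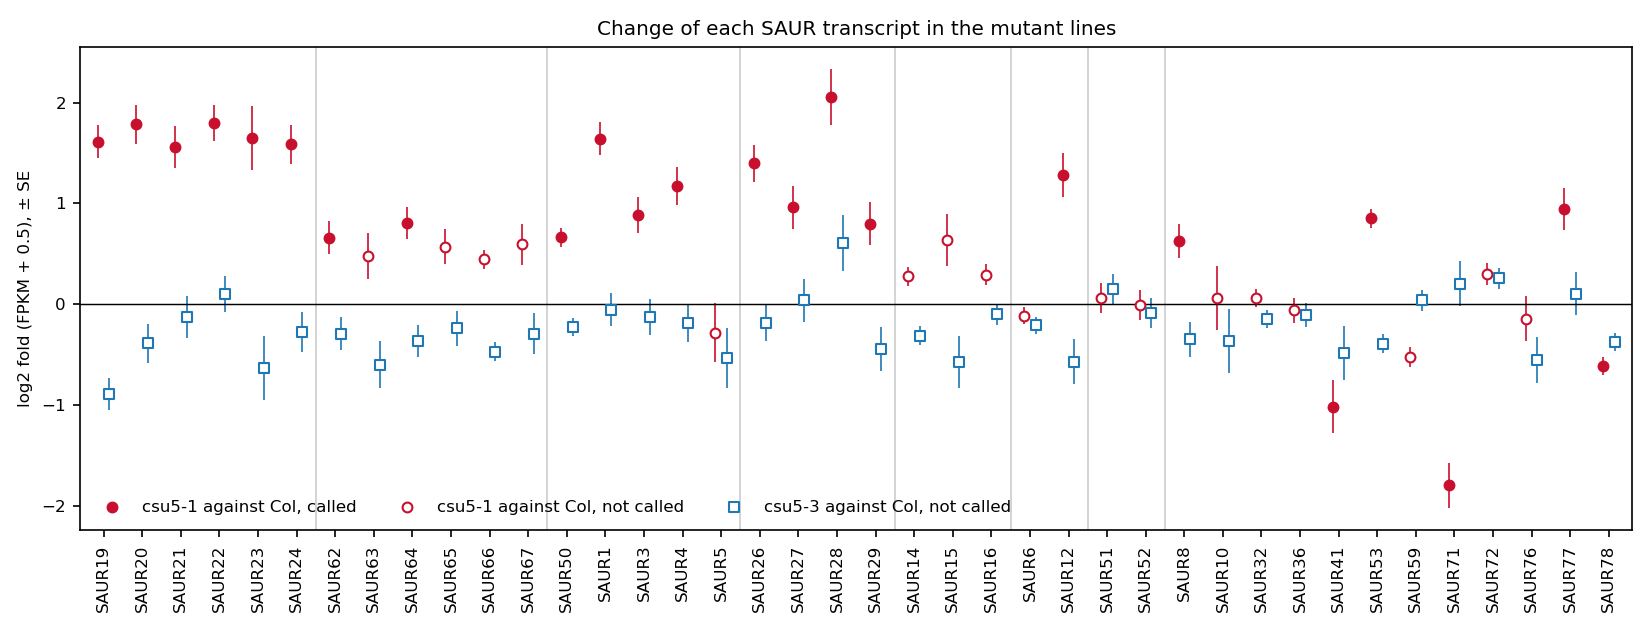
Log2 difference of each tested SAUR gene in csu5-1 (circles, filled where called) and csu5-3 (squares) against Col, on the log2(FPKM + 0.5) scale, with bars of 1 standard error. The filled circles above 0 include every gene of SAUR19 to SAUR24 and of SAUR26 to SAUR29, and the lowest filled circle is SAUR71 at −1.80.

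The growth-promoting copies SAUR19 to SAUR24 all rose in csu5-1, 6 of 6 (100%, against 8.31% of all tested genes). They rose by 1.56 to 1.79 on the log2 scale. SAUR22 (AT5G18050) had 1.54, 3.12 and 2.19 FPKM in Col, 8.55, 8.15 and 8.61 in csu5-1, and 2.66, 2.12 and 2.46 in csu5-3. SAUR20 (AT5G18020) had 4.91, 4.67 and 2.98 FPKM in Col, 11.7, 17.4 and 15.2 in csu5-1, and 2.53, 2.73 and 3.92 in csu5-3. For both genes every csu5-1 library was above every other library, while Col and csu5-3 overlapped. The log2 differences from Col were 1.79 ± 0.18 for SAUR22 (SE, limma adjusted p = 4.6e-06) and 1.79 ± 0.19 for SAUR20 (limma adjusted p = 9.2e-06).

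SAUR19 (AT5G18010) was the copy with the lowest mean in csu5-3. It had 2.56, 2.53 and 2.30 FPKM in Col, 7, 9.08 and 8.40 in csu5-1, and 1.37, 0.77 and 1.20 in csu5-3. All csu5-1 libraries lay above Col and all csu5-3 libraries below it. The rise in csu5-1 was 1.61 ± 0.16 (SE, limma adjusted p = 4.7e-06). In csu5-3 the difference from Col was −0.89 ± 0.16 with a limma adjusted p of 0.013, the lowest of the 40 SAUR genes in that comparison and above the threshold.

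SAUR23 (AT5G18060) had 3.28, 3.25 and 3.46 FPKM in Col, 9.79, 11.5 and 11.5 in csu5-1, and 3.76, 2.31 and 0.75 in csu5-3. SAUR24 (AT5G18080) had 6.06, 4.54 and 4.65 FPKM in Col, 18.1, 16.9 and 11.6 in csu5-1, and 5.44, 3.06 and 4.03 in csu5-3. SAUR21 (AT5G18030) had 5.92, 3.21 and 3.38 FPKM in Col, 13.0, 12.5 and 11.1 in csu5-1, and 3.82, 4.73 and 2.64 in csu5-3. In each of these copies csu5-1 stood clear of the other 6 libraries, and csu5-3 overlapped Col with SAUR23 scattering most. They rose by 1.65 ± 0.31, 1.59 ± 0.20 and 1.56 ± 0.21 on the log2 scale (SE, limma adjusted p at most 0.00086). The summed level of the 6 copies was 21.5 ± 2.66 FPKM in Col, 70.0 ± 4.86 in csu5-1 and 16.8 ± 2.46 in csu5-3 (SD, n = 3).

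SAUR26 to SAUR29, of which SAUR26 to SAUR28 are known for temperature-dependent growth, also rose in csu5-1, 4 of 4 (100%, against 8.31% of all). SAUR28 (AT3G03830) had the largest log2 difference of the 40 genes, from 1.69, 0.38 and 0.80 FPKM in Col to 3.79, 6.54 and 4.68 in csu5-1, with 1.65, 1.36 and 1.72 in csu5-3. SAUR26 (AT3G03850) had 2.34, 1.66 and 1.21 FPKM in Col, 4.89, 5.53 and 4.59 in csu5-1, and 1.25, 1.36 and 1.70 in csu5-3. The csu5-1 libraries were highest for both genes, and Col overlapped csu5-3. SAUR28 rose by 2.05 ± 0.28 and SAUR26 by 1.40 ± 0.18 (SE, limma adjusted p = 6.5e-05 and 4.7e-05). SAUR27 rose by 0.96 ± 0.21 from a Col mean of 1.75 FPKM, with a limma adjusted p of 0.014 without csu5-1 replicate 1. SAUR29, the most abundant of the 4 with a Col mean of 10.7 FPKM, rose by 0.80 ± 0.22, with a limma adjusted p of 0.0086 that lay between 0.011 and 0.043 when any of 6 single libraries was left out.

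Of the 5 tested genes in the neighbourhood of SAUR50, 4 rose in csu5-1 (80%, against 8.31% of all tested genes). SAUR50 (AT4G34760), which light induces in cotyledons and which acts in their opening, rose by 0.66 ± 0.09 (SE, limma adjusted p = 6.7e-05), from 33.3, 27.1 and 31.5 FPKM in Col to 48.4, 43.97 and 45.7 in csu5-1. The SAUR50 call ended without scaling and without Col replicate 2, both at 0.58 and just under the fold threshold of 0.585. SAUR1 (AT4G34770) had 2.30, 2.30 and 2.49 FPKM in Col, 8.24, 8.57 and 7.20 in csu5-1, and 2.17, 1.70 and 3.08 in csu5-3. SAUR4 (AT4G34800) had 8.97, 10.6 and 8.02 FPKM in Col, 25.6, 18.1 and 17.6 in csu5-1, and 10.5, 8.19 and 5.83 in csu5-3. All 3 genes had every csu5-1 library above every Col library. The log2 differences were 1.64 ± 0.16 for SAUR1, 1.17 ± 0.19 for SAUR4 and 0.88 ± 0.18 for SAUR3 (SE, limma adjusted p at most 0.0013).

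SAUR5, the next gene along, did not share the rise of its neighbours. Its values were 2.76, 5.47 and 3.43 FPKM in Col, 4.09, 1.69 and 3.17 in csu5-1, and 1.75, 3.56 and 2.25 in csu5-3, and the 3 genotypes overlapped. The difference in csu5-1 was −0.28 ± 0.30 (SE, limma adjusted p = 0.45).

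**Figure D3:**
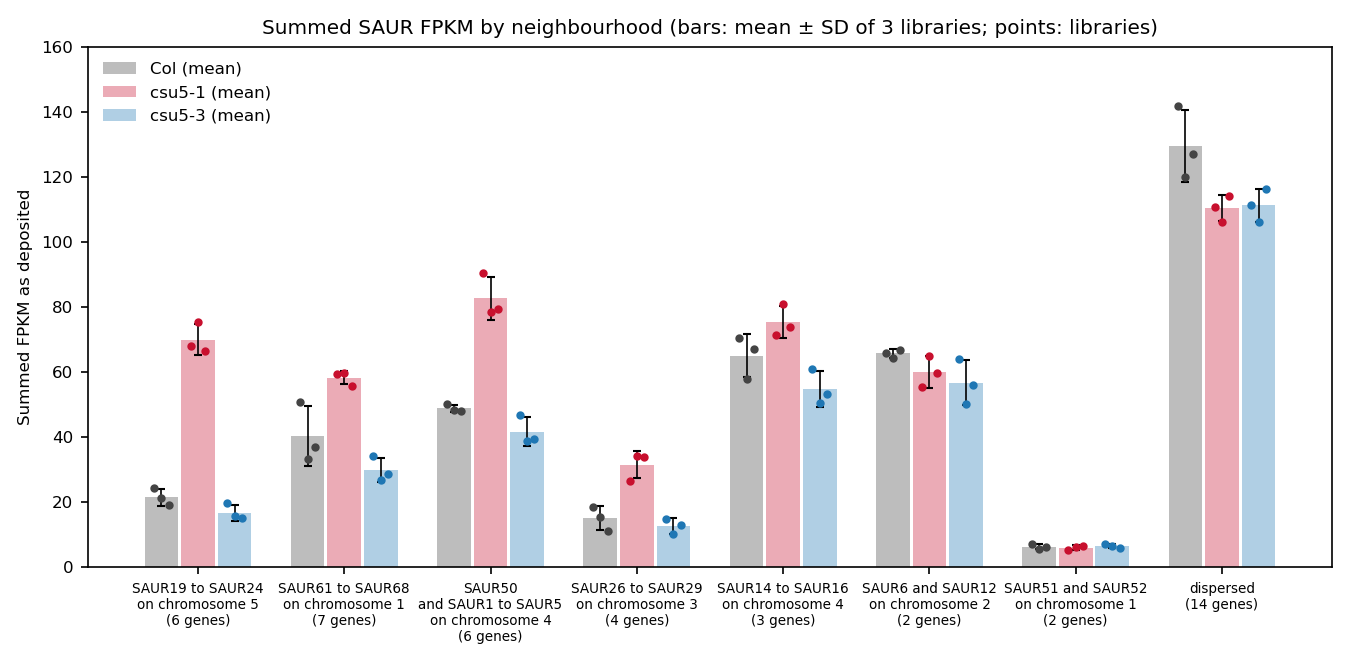
Summed FPKM of the SAUR genes of each neighbourhood, with bars for the mean of 3 libraries, whiskers for 1 SD and points for single libraries. The SAUR19 to SAUR24 sum was 21.5 FPKM in Col and 70.0 in csu5-1, whereas the sum of the 14 dispersed genes was 129.6 in Col and 110.4 in csu5-1.

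The SAUR61 to SAUR68 neighbourhood includes SAUR63, known to promote elongation of hypocotyls and stamen filaments. There 2 of 6 tested genes rose in csu5-1 against Col (33.3%, against 8.31% of all tested genes). SAUR64 rose by 0.81 ± 0.16 and SAUR62 by 0.66 ± 0.16 (SE, limma adjusted p = 0.00099 and 0.005). The SAUR62 call was lost when Col replicate 2, Col replicate 3, csu5-1 replicate 1 or csu5-1 replicate 2 was left out, with limma adjusted p-values of 0.015 to 0.024. SAUR63 (AT1G29440) itself had 10.2, 6.06 and 5.86 FPKM in Col, 9.45, 9.81 and 9.57 in csu5-1, and 6.97, 3.92 and 3.40 in csu5-3. Col replicate 1 was the high library for SAUR63, above all of csu5-1, and the limma adjusted p was 0.10. That library was high across the neighbourhood, with a summed level of 50.9 FPKM beside 33.2 and 37.0 in the other Col libraries. Without it SAUR65 and SAUR67 were called too, at log2 differences of 0.78 and 0.79 in place of 0.57 and 0.60.

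Among light-responsive cotyledon genes, SAUR14 and SAUR16 were abundant and moved little. SAUR14 (AT4G38840) had 46.4, 37.8 and 40.01 FPKM in Col, 42.8, 51.4 and 48.1 in csu5-1, and 37.6, 29.6 and 32.8 in csu5-3, so csu5-3 lay below and csu5-1 overlapped Col. SAUR16 had means of 22.7 ± 3.36, 26.2 ± 2.08 and 21.0 ± 1.72 FPKM in Col, csu5-1 and csu5-3 (SD, n = 3). Their log2 differences in csu5-1 were 0.27 ± 0.10 and 0.29 ± 0.10 (SE, limma adjusted p = 0.034 and 0.032). SAUR15, the auxin-induced gene also called SAUR-AC1, had means of 1.01 FPKM in Col and 1.82 in csu5-1 and was not called. SAUR12 (AT2G21220) was the exception among these smaller neighbourhoods, with 1.34, 1.07 and 1.46 FPKM in Col, 4.25, 3.47 and 3.25 in csu5-1, and 1.19, 0.60 and 0.42 in csu5-3. SAUR12 rose by 1.28 ± 0.22 (SE, limma adjusted p = 0.00042), with csu5-1 clear of both other genotypes. SAUR51 and SAUR52 differed from Col by 0.06 ± 0.15 and −0.01 ± 0.15.

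The dispersed genes moved both ways in csu5-1, with 3 of the 12 tested rising and 3 falling (25% each, against 8.31% and 7.86% of all tested genes). SAUR71 (AT1G56150), a relative of SAUR41, fell furthest, from 2.35, 1.97 and 2.61 FPKM in Col to 0.48, 0.39 and 0.05 in csu5-1, while csu5-3 kept 2.51, 2.57 and 3.13. Every csu5-1 library was below every library of the other genotypes, and the log2 difference from Col was −1.80 ± 0.22 (SE, limma adjusted p = 2.9e-05). SAUR72, its close relative, had 3.55 ± 0.34 FPKM in Col and 4.24 ± 0.19 in csu5-1 (SD, n = 3), with a log2 difference of 0.30 ± 0.11 that was not called.

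SAUR41 (AT1G16510), which promotes cell expansion, had 3.10, 1.48 and 2.85 FPKM in Col, 1.28, 0.55 and 0.87 in csu5-1, and 1.86, 1.13 and 1.76 in csu5-3. SAUR78 (AT1G72430), linked to ethylene responses, had 53.9, 40.3 and 42.0 FPKM in Col, 26.4, 28.0 and 28.6 in csu5-1, and 34.1, 34.3 and 35.3 in csu5-3. For both genes csu5-1 lay below Col throughout. They fell by 1.02 ± 0.27 and 0.62 ± 0.09 on the log2 scale (SE, limma adjusted p = 0.0067 and 9.2e-05). Leaving out Col replicate 1 ended both calls, at −0.86 and −0.49, so that 1 gene, SAUR71, then fell instead of 3. The SAUR41 call also ended without Col replicate 3, csu5-1 replicate 2 or csu5-1 replicate 3 (limma adjusted p of 0.02 to 0.031), and the SAUR78 call without csu5-1 replicate 1, at −0.58. SAUR59 was below Col in every csu5-1 library at −0.52 ± 0.10 (SE, limma adjusted p = 0.00095), short of the fold threshold.

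The dispersed genes that rose in csu5-1 were SAUR53, SAUR77 and SAUR8. SAUR53 (AT1G19840) had 6.02, 6.09 and 7.20 FPKM in Col, 11.7, 11.3 and 11 in csu5-1, and 4.72, 4.52 and 5.09 in csu5-3. Its 3 genotypes did not overlap, and the rise was 0.85 ± 0.10 (SE, limma adjusted p = 1.3e-05). SAUR77 rose by 0.94 ± 0.21 and SAUR8 by 0.63 ± 0.17, the latter at a limma adjusted p of 0.009 close to the threshold. The SAUR77 call was lost without Col replicate 2, csu5-1 replicate 1 or csu5-1 replicate 3, and that of SAUR8 without any of 6 single libraries (limma adjusted p of 0.011 to 0.013 and 0.012 to 0.04). SAUR36, known from leaf senescence, had 6.29 ± 0.66 FPKM in Col and 5.67 ± 0.18 in csu5-1. SAUR10 and SAUR76 likewise overlapped Col, with differences of 0.06 ± 0.32 and −0.14 ± 0.23.

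In csu5-3 against Col, 0 of the 40 tested genes rose and 0 fell with limma, where 0.119% of all tested genes rose and 0.129% fell (0.248% in either direction). At an unadjusted p under 0.05, limma put 1 gene above Col (SAUR72) and 12 below, where 9.78% of all tested genes were above and 12.2% below. The fitted differences were negative for 32 of 40 genes and positive for 8, with a median of −0.26, while 49.6% of all tested genes were positive. Their range was −0.89 (SAUR19) to 0.60 (SAUR28). After SAUR19 the lowest adjusted p-values belonged to SAUR66, which had 10.6, 8.59 and 8.57 FPKM in Col and 6.09, 6.76 and 6.71 in csu5-3, and to SAUR78. SAUR66 differed from Col by −0.47 ± 0.10 (SE, limma adjusted p = 0.019) and SAUR78 by −0.38 ± 0.09 (limma adjusted p = 0.031). The summed level of all 44 genes was 330.3 ± 27.2 FPKM in csu5-3 (SD, n = 3) and 392.5 ± 32.7 in Col, a ratio of 0.841.

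Set directly against csu5-3, csu5-1 was higher for 26 of 40 tested genes (65.0% rose, against 8.12% of all tested genes) and lower for SAUR71 alone (2.5% fell, against 6.59%). The median log2 difference was 0.92. SAUR19 differed most, by 2.51 ± 0.16 (SE, limma adjusted p = 1.2e-07), and SAUR71 differed by −2.0 ± 0.22 (limma adjusted p = 1.3e-05). All 6 tested genes of the SAUR61 to SAUR68 neighbourhood rose in this comparison (100%, against 8.12% of all), by 0.81 to 1.17. The SAUR67 call was lost under 5 settings, among them leaving out csu5-1 replicate 2, csu5-1 replicate 3 or csu5-3 replicate 2. The SAUR63 call was lost under 2, among them leaving out csu5-3 replicate 3, and the SAUR65 call without csu5-1 replicate 1. SAUR66 was 0.92 ± 0.10 above csu5-3 and 0.44 ± 0.10 above Col, and SAUR63 1.08 ± 0.23 above csu5-3 and 0.48 ± 0.23 above Col. SAUR14 rose by 0.59 ± 0.10, at the fold threshold, and SAUR15 by 1.21 ± 0.26, although SAUR15 entered the test through its csu5-1 values.

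The CACATG windows and the calls were set side by side as a description. Of the 22 tested SAUR genes with CACATG in the window, 13 rose in csu5-1 against Col and 0 fell, with a median log2 difference of 0.73. Of the 18 without it, 7 rose and 3 fell, with a median of 0.18. Across all tested genes with a window, 12.1% of the 2105 with CACATG rose and 7.22% fell, against 7.93% and 7.86% of the 16728 without. The tested SAUR genes with it that were not called were SAUR5, SAUR6, SAUR14, SAUR15, SAUR51, SAUR63, SAUR65, SAUR66 and SAUR67.

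SAUR proteins act between auxin perception and the proton pumps, and genes on either side of them were read from lists chosen with earlier results known. Among the PP2C.D phosphatases, which SAUR proteins inhibit, 2 of 9 tested genes rose in csu5-1 (22.2%, against 8.31% of all tested genes) and 0 fell (0%, against 7.86%), with a list median of 0.06. AT5G02760 had 25.5, 18.4 and 17.5 FPKM in Col and 75.9, 69.8 and 67.0 in csu5-1, with 16.9, 14.8 and 16.6 in csu5-3. It rose by 1.87 ± 0.12 against Col (SE, limma adjusted p = 7.1e-08), and AT5G66080 rose by 1.16 ± 0.11, from a mean of 7.41 to 16.2 FPKM. The other 7 differed by −0.20 to 0.48.

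The proton pumps themselves showed 0 calls with limma among 8 tested genes in csu5-1 against Col, where 16.2% of all tested genes were called. At an unadjusted p under 0.05, limma put 2 pumps higher and 4 lower, where 27.4% of all tested genes were higher and 28.5% lower. AHA2, a major pump of vegetative tissue, had 321.6, 332.5 and 324.0 FPKM in Col and 455.1, 457.7 and 419.9 in csu5-1. All csu5-1 libraries were above Col, and the difference of 0.52 ± 0.05 (SE, limma adjusted p = 2.1e-06) was short of the fold threshold. AHA3 lay lower in csu5-1 by −0.56 ± 0.07 (limma adjusted p = 2.9e-05), also short of it.

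Upstream, 1 of 6 auxin receptors rose in csu5-1 (16.7%, against 8.31% of all tested genes). AFB1 had 23.8, 27.0 and 22.7 FPKM in Col and 44.5, 43.6 and 43.0 in csu5-1, a rise of 0.91 ± 0.07 (SE, limma adjusted p = 8.3e-07). Of the cell surface TMK kinases, which also relay auxin to the pumps, 3 of 4 were tested with limma. Of these 0 were called in csu5-1 against Col, where 16.2% of all tested genes were called. At an unadjusted p under 0.05, limma put 3 higher in csu5-1 by 0.17 to 0.37, as it did 27.4% of all tested genes. TMK1 differed by 0.37 ± 0.05 and AT2G01820 by 0.24 ± 0.05. Among the ARF transcription factors, which bind auxin response elements, 2 of 15 rose (ARF18 by 0.79 ± 0.08 and ARF5 by 0.72 ± 0.11) and 0 fell, which is 13.3% and 0% against 8.31% and 7.86% of all tested genes. Of 8 growth transcription factors, 2 rose (25%, against 8.31% of all tested genes), PIF4 by 1.78 ± 0.12 and PIF5 by 2.09 ± 0.08 (SE, limma adjusted p at most 1.6e-07). In csu5-3 against Col 0 genes of these 6 lists were called with limma, where 0.248% of all tested genes were called. At an unadjusted p under 0.05, 11 of their 49 tested genes were higher and 5 lower, beside 9.78% and 12.2% of all tested genes.

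**Figure D4:**
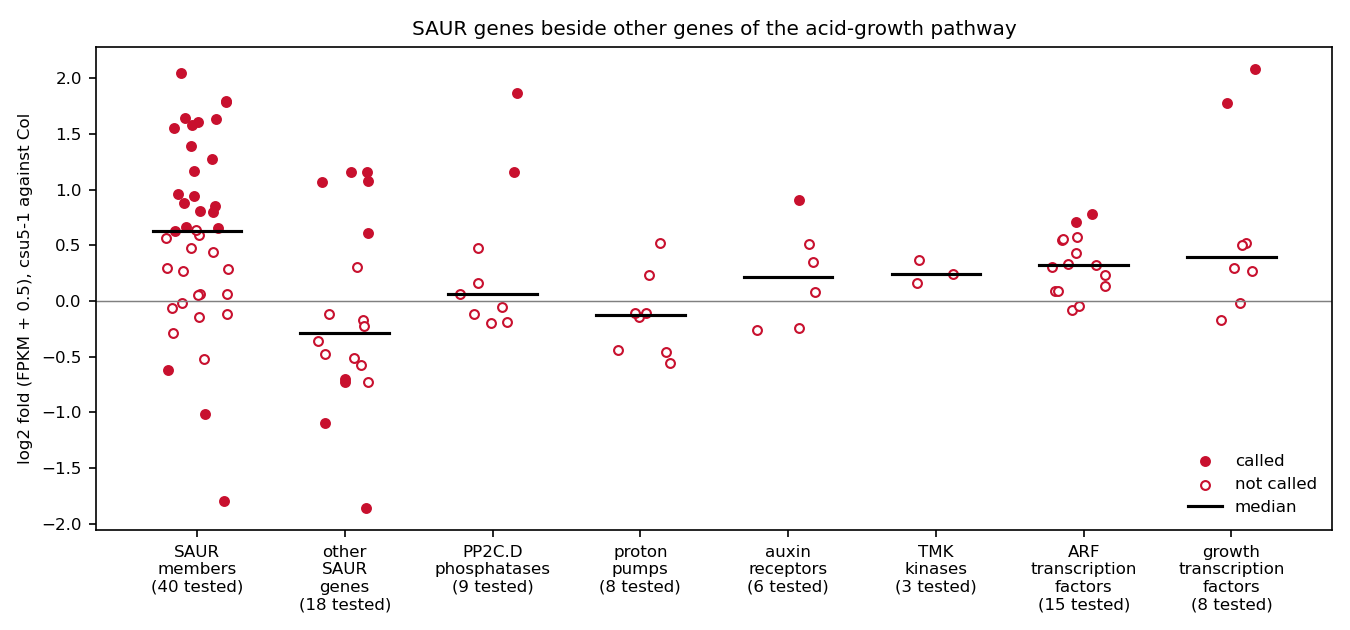
Log2 difference in csu5-1 against Col of the tested SAUR genes, of the other SAUR genes of the genome and of 6 lists of genes around them, filled where called, with a bar at each median. The 40 SAUR genes have a median of 0.63 and the PP2C.D phosphatases 0.06, with 2 phosphatases above 1.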

How the data were processed

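Polyadenylated RNA was sequenced from 9 libraries of 3 genotypes. Per the submitters' processing notes, the authors used Trimmomatic, HISAT2 2.05, HTSeq and the build TAIR10. The deposited values carry no header or unit, and were read as FPKM because low values of short genes (60 to 450 exonic bases) fell on whole reads. The estimated depth of a library was the one that put the largest share of such values on whole reads (to 0.1 read). At that depth, 206 to 242 such values per library gave whole reads in 74.76% to 82.51% of cases, the highest share by choice. The median share over the other assumed depths was 14.09% to 15.77% across libraries. The sources used here do not give how the authors made the FPKM. Replicates differed by more than counting error (mean chi-square per gene 8.18 to 13.6).

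Values were scaled per library by a trimmed mean of log ratios (share of 0.3 at each end, factors 0.960 to 1.026), taken as log2(FPKM + 0.5), and fitted with limma 3.58.1 in R 4.3.3 with a mean-variance trend and 1 mean per genotype over all libraries. The script was tested on simulated data. The SAUR genes, the lists and the motifs were chosen with earlier results of these data known. Values for every library are given for the 12 called genes with the largest log2 difference in csu5-1 and the 2 most abundant, and for others chosen after their values were seen. In each list, called genes with up to 4 of the smallest p-values are named.

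Names came from RefSeq, and gene models and sequences from RefSeq TAIR10.1, read with Python 3.11.15, pandas 2.3.3, numpy 2.4.6 and Biopython 1.88. AT1G29510, listed there as SAUR68 with the synonym SAUR67, is called SAUR67, since AT1G29490 also bears the name SAUR68. Plots used matplotlib 3.10.9.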

Additional observations from a re-analysis of the deposited data

How the results depend on the processing

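Each count was recomputed with other pseudocounts, filters, scalings and variance models, with 6 libraries alone, and without each library. Requiring 5 FPKM in 3 libraries left 23 SAUR genes tested. Of these 13 rose and 1 fell in csu5-1 against Col, and 17 rose and 0 fell against csu5-3. SAUR1 and SAUR19 to SAUR24 reached that level in 3 libraries only with the help of csu5-1 libraries, where they are high. Their rises under this filter are therefore no separate support. Without scaling, and with exon length and GC trends removed (an alternative chosen after seeing the data), 2 genes fell against csu5-3. Leaving out 1 library gave 16 to 20 genes that rose and 1 to 3 that fell in csu5-1 against Col, 22 to 26 and 1 to 2 against csu5-3, and 0 to 0 in csu5-3 against Col. In the main fit 8.31% of all tested genes rose and 7.86% fell in csu5-1 against Col, and 8.12% and 6.59% against csu5-3. Shares of all genes under the filter and with 1 library left out are not given here, so those counts are not read against them. The lowest count of falls in csu5-1 against Col came without Col replicate 1. SAUR59 was the added fall against csu5-3 without csu5-1 replicate 3, csu5-3 replicate 2 or csu5-3 replicate 3. The cause was not tested.

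With the replicate block 19 genes rose and 3 fell in csu5-1 against Col, and 26 and 1 against csu5-3. In csu5-3 against Col 0 rose and 0 fell. Calls over all genes went from 3125 to 3194 in csu5-1 against Col and from 2842 to 2887 against csu5-3. In csu5-3 against Col they went from 48 to 77. Deviations of same-numbered libraries correlated at 0.017 to 0.15, and those of libraries with different numbers at −0.14 to 0.031. The main fit used genotype only and did not take the numbers as pairs. The same number correlated best in 16 of 18 combinations, a hint that libraries of a number belong together. This hint comes from the data and not from the design. The 18 combinations take each pair of genotypes from both sides, so they are not independent of each other.

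Over 19 settings, 2227 fitted differences of single SAUR genes held 0 sign changes among called genes and 42 among uncalled ones. Calls near a threshold were lost under several: SAUR8 against Col under 11, SAUR29 against Col under 10 and SAUR14 against csu5-3 under 10. Low levels limit precision: SAUR71 rested on 0.05 to 0.48 FPKM in csu5-1.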

Other observations

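The genome holds further SAUR genes outside the 44, and 35 of them have a row in the files. Of these 18 were tested, and in csu5-1 against Col 5 rose (27.8%, against 8.31% of all tested genes) and 4 fell (22.2%, against 7.86%), with a median log2 difference of −0.29. SAUR31 fell from 18.1, 18.9 and 14.5 FPKM in Col to 4.27, 3.75 and 4.30 in csu5-1, while csu5-3 had 16.8, 19.6 and 16.6. Every csu5-1 library was below every other library, and the log2 difference was −1.86 ± 0.11 (SE, limma adjusted p = 4.2e-08). SAUR37 fell by 1.09 ± 0.16, from a mean of 12.8 FPKM in Col to 5.50 in csu5-1 (limma adjusted p = 0.00011). SAUR79 and SAUR33 rose, by 1.16 ± 0.20 and 1.07 ± 0.19 (limma adjusted p = 0.00042 and 0.00051). With limma 0 of the 18 rose and 0 fell in csu5-3 against Col, where 0.119% of all tested genes rose and 0.129% fell. At an unadjusted p under 0.05, limma put 0 higher and 5 lower, where 9.78% of all tested genes were higher and 12.2% lower.

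AT1G29490, the SAUR68 gene of the SAUR61 to SAUR68 neighbourhood, was too low to be tested. Its values, singled out after they were seen, were 0, 0.14 and 0 FPKM in Col, 0.89, 2.36 and 1.76 in csu5-1, and 0.07, 0.07 and 0.08 in csu5-3. CACATG was present in 7 of the 35 windows of these other genes (20%).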
